A study of Mus musculus with 6 samples.

Results

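The genes described here are 10 components of the piRNA pathway, measured by RNA sequencing in mouse embryonic stem cells after knockdown of Npm1. They are Piwil2, Ddx4, Mov10l1, Pld6, Asz1, Tdrd1, Tdrd5, Tdrd9, Tdrkh and Mael. They were taken by gene symbol from a deposited table of 52535 genes, and all 10 were found in it. The cells were E14, a line of mouse embryonic stem cells, grown in N2B27, a serum-free medium, with LIF/2i (leukaemia inhibitory factor plus inhibitors of kinases). In 3 samples they had received an siRNA against Npm1, which encodes the nucleolar protein nucleophosmin, and in the other 3 samples a control siRNA. All samples were collected 3 days after transfection. The labels give the first group as an Npm1 knockdown and the second as wild type, and both come from the same parental line. Nothing in them says that the samples came from separate cultures. A p-value therefore rests on these 6 samples alone, and the spread among them may be technical.

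PIWI-interacting RNAs (piRNAs) are small RNAs of the animal germline that guide Argonaute proteins of the Piwi class to transposon transcripts. Long precursors are handed by an RNA helicase to a nuclease on the outer face of mitochondria, loaded onto a Piwi protein, trimmed at the 3′ end and sorted in cytoplasmic granules built on Tudor-domain proteins. In male germ cells the pathway cleaves transposon RNA and directs DNA methylation to transposon copies. Most of its genes are silent in somatic tissues, where promoter DNA methylation and germline-gene repressors such as E2f6 and the Mga-Max complex keep them off, and embryonic stem cells are known to transcribe several of them at low level.

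Of the 10 genes, 2 passed the test and both fell: by the authors' deposited table, Mov10l1 was at 53.2% and Mael at 50.5% of its control level. When each library was left out in turn, Mov10l1 stayed called in all 6 fits and Mael in 2 of 6. Both calls were lost when the test asked for more than a 1.2-fold change. No member was called higher. Another 6 were tested and not called, and 2, Asz1 and Tdrd1, were too low to test. Across all 14284 tested genes, 2.07% were called lower and 2.23% higher, where a call is a Benjamini-Hochberg adjusted p under 0.05 and testing required a mean normalized count of at least 10. Among the 5893 tested genes of like level, with a mean between 10 and 250, 1.15% were called lower and 0.458% higher. They are members by name, but were selected on an earlier account of this same comparison, in which Mael and Mov10l1 had been seen to fall, so their fold changes and p-values are given as a description and not as a test.

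Promoter windows from RefSeq (GRCm38.p6), running from 250 bases before to 50 after an annotated start site, were at hand for 9 of the 10 genes, all but Piwil2. Those of the genes called lower, Mael and Mov10l1, are shown with those of Pld6, which had the highest fold change of the 10, and Ddx4, which had the fold change nearest to 0. Each is read 5′ to 3′ on the gene's strand, and capitals mark CACGTG, the E-box bound by Mga with Max, and GCGGGAA, an E2F motif.
Mael, chr1:166238695-166238994, minus strand: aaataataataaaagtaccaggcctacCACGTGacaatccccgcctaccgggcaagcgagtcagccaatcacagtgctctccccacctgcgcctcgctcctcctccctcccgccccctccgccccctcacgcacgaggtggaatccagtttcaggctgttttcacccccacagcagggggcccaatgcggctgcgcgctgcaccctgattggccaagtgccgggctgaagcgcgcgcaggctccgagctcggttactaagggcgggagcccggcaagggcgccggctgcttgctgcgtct
Mov10l1, chr15:88982744-88983043, plus strand: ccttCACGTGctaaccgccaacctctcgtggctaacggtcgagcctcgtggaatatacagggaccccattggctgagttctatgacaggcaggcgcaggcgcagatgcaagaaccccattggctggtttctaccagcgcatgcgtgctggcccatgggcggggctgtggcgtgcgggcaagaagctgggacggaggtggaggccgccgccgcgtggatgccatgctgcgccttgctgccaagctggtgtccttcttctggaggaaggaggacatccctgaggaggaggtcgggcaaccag
Pld6, chr11:59787608-59787907, minus strand: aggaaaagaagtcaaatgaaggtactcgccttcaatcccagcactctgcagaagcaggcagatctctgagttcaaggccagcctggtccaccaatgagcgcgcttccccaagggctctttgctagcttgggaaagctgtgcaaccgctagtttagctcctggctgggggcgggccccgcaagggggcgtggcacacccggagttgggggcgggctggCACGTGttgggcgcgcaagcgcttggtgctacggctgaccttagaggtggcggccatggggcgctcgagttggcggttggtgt
Ddx4, chr13:112652261-112652560, minus strand: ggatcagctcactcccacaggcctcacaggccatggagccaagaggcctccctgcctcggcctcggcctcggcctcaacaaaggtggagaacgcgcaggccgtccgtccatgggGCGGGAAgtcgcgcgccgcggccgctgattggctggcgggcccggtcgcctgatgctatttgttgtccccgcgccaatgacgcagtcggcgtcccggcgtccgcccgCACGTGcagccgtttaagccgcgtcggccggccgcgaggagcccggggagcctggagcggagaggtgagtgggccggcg

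Each of these 4 windows holds 1 E-box. Its first base lies at position -223 from the start site in Mael, -246 in Mov10l1, -33 in Pld6 and -29 in Ddx4. Positions are counted from the RefSeq start site. The GENCODE 5′ end lies 165 bases further upstream in Ddx4 and 85 in Mov10l1, so the Ddx4 match falls inside the GENCODE gene. Both strands were searched for CACGTG, which reads the same on each. Where a gene had several windows, the one whose start lay nearest to the 5′ end of the GENCODE gene was used. On that rule Tdrd1 had an E-box at -11 and Tdrd9 had a pair, at -165 and -95, so that 6 of 9 genes had a match. Tdrd5, Tdrkh and Asz1 had no CACGTG in this window. Over all 32851 RefSeq windows, the E-box occurs in 7.15%, and 10.9% of the 14281 windows with at least 10 CpG do. Counting any window of a gene, 8.09% of 27025 genes hold it, and 5 of the 16 other pathway genes with a window do (Piwil1, Stk31, Fkbp6, Ddx25 and Dnmt3l). The E-box was thus found in Mael and Mov10l1, which were called lower, and in Pld6, Ddx4 and Tdrd9, which were not called. Tdrd1, which also holds it, was too low to test. Whether the motif relates to the fold changes was not tested.

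The E2F motif GCGGGAA was found on either strand in Ddx4, at -136, and Tdrd5, at -250, against 4.60% of all RefSeq windows. Its shorter core TCCCGC, which any match to the longer motif contains on the other strand, occurred in these and also in Mael, at -143 and 12, and in 20.0% of all windows. The GCGGGAA matches lie downstream of the GENCODE 5′ end, which is 165 bases before the RefSeq start in Ddx4 and 316 in Tdrd5. The windows were rich in CpG, with counts between 10 in Tdrd9 and 48 in Tdrd5 and a median of 20, against a median of 7 over all windows. Mael had 24 and Mov10l1 20, so the called genes lay in the middle of this range.

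**Figure D1:**
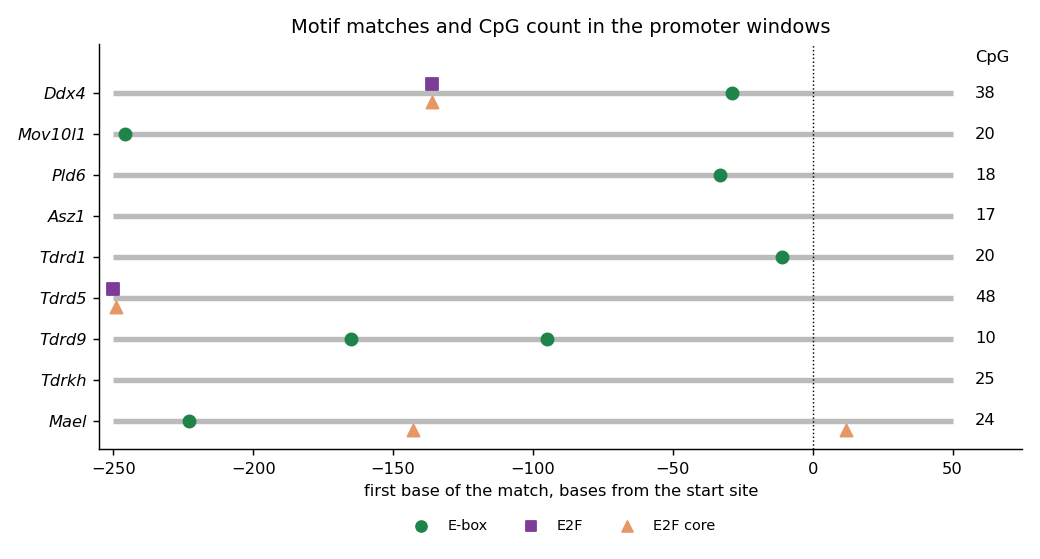
Matches to the E-box, the E2F motif and its core in the promoter windows of 9 piRNA pathway genes, by distance in bases from the start site (dotted line), with the number of CpG at the right. The E-box is present in 6 of the 9 windows, at positions from -246 to -11.

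The deposited table gives a mean over the 6 libraries and a fold change per gene, with no column per library. Each mean is a sum of whole reads divided by 6 scaling factors, which genes seen by a single read give. Its digits therefore limit the reads possible in each library. Together with the fold change they gave the reads for all 10 genes. Within the limits of the search, only 1 set of whole reads for each gene gave both the deposited mean and the deposited fold change. The libraries can be assigned to a group in this way and not to a replicate number, and they are given here in falling order of scaling factor (1.06, 1.05 and 0.954 for Npm1 siRNA, against 1.04, 1.01 and 0.923 for control siRNA). Normalized reads are reads divided by that factor. Intervals and adjusted p-values given with the authors' deposited table were computed here from its fold changes and p-values. Which group is on top of the ratio is not stated in the header. Npm1 has a log2 fold change of -1.14 (Benjamini-Hochberg adjusted p = 5.35e-49) in the authors' deposited table, so the ratio was taken to have the Npm1 siRNA group on top. All directions here depend on this, and the fall of Npm1 is thus no separate check of the labels.

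Defining markers of the labelled cell type were abundant. All 8 embryonic stem cell markers followed, among them Pou5f1, Nanog and Esrrb, had means of 3740 to 23793 normalized counts in the authors' deposited table. The 6 fibroblast markers summed to 41.1, with Postn and Dcn listed at 0. All 8 germ cell markers were detected, from 27.6 for Nanos3 to 2945 for Dppa3, and naive embryonic stem cells are known to express several of these. None of the tested markers passed the test. The one nearest to a call was the germ cell marker Stra8, at a log2 fold change of -0.98 (Benjamini-Hochberg adjusted p = 0.0761) in the authors' deposited table. In bulk RNA, fewer cells that transcribe a gene and less RNA of it per cell cannot be told apart.

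All 10 members were low. Levels are compared between genes as normalized reads per kilobase of the longest annotated transcript, and the median of 13906 tested genes on this scale was 143. Mael had the highest control level of the 10 at 75.8 ± 11.5 per kilobase (SD, n = 3), with a range above those of Mov10l1 and Piwil2 that met the top of the range of Ddx4 (lowest Mael library 62.61, highest Ddx4 library 62.65). Mov10l1 (50.4 ± 4.31), Piwil2 (48.5 ± 9.04) and Ddx4 (47.4 ± 13.8) followed in control cells, with ranges that overlapped one another and leave their order unresolved. Pld6 (25 ± 3.20) and Tdrd5 (15 ± 3.11) each stood apart from their neighbours in control. Tdrd9 (6.54 ± 2.95) and Tdrkh (4.40 ± 2.18) overlapped, and so did Asz1 (1.46 ± 0.761) and Tdrd1 (0.588 ± 0.385) at the bottom. In Npm1 siRNA cells the order was different at the top, where Ddx4 (49.1 ± 4.55 per kilobase), Pld6 (40.8 ± 9.25), Piwil2 (39.0 ± 5.70) and Mael (38.3 ± 9.76) came before Mov10l1 (26.8 ± 2.52; SD, n = 3 each), each with a range that overlapped the next. On the pooled mean per kilobase in the authors' deposited table, the 8 tested members lay above between 1.47% (Tdrkh) and 34.0% (Mael) of tested genes. Other pathway genes lay on both sides of the median of 143 on this pooled scale, with Morc1 at 1289 and Tdrd3 at 65.7.

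**Figure D2:**
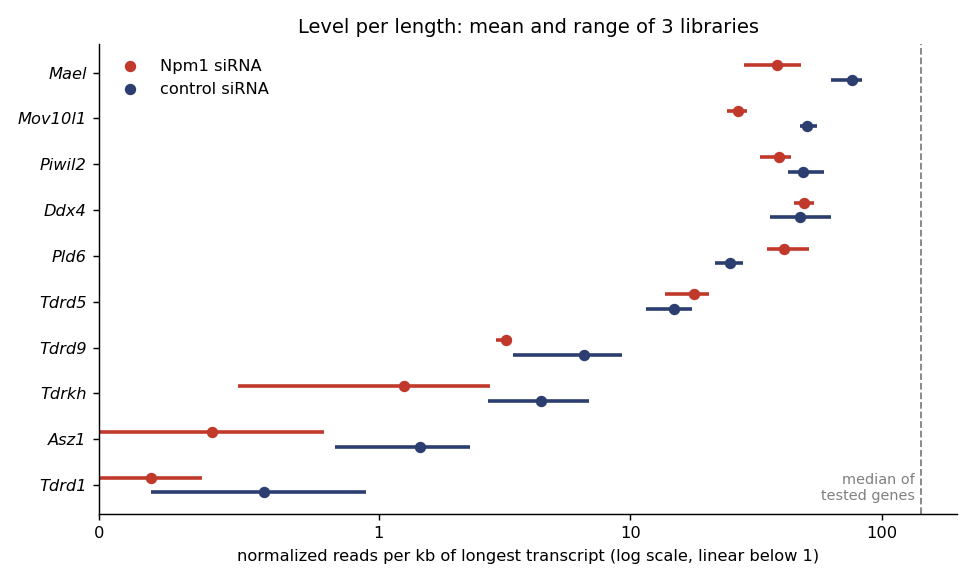
Normalized reads per kilobase of the longest transcript (log scale, linear below 1) for 10 piRNA pathway genes in Npm1 siRNA and control siRNA libraries, points for the mean and bars for the range of 3 libraries. All 10 genes lie left of the dashed line, the median of tested genes at 143.

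Piwil2 encodes MILI, a cytoplasmic Piwi protein that binds piRNAs and cuts their targets. Npm1 siRNA libraries had 228, 168 and 191 reads, or 214.7, 161 and 200.2 normalized reads, against 217, 219 and 267 reads, or 209, 216 and 289 normalized reads, in control libraries. The groups overlapped, since 1 Npm1 siRNA library lay above the lowest control library. Piwil2 had a log2 fold change of -0.31 (95% interval -0.73 to 0.11, Benjamini-Hochberg adjusted p = 0.514) in the authors' deposited table. That interval spans a fall as large as a log2 of -0.73 and a slight rise.

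Ddx4 encodes the germ cell RNA helicase Vasa, which helps pass cleaved RNA between Piwi proteins. Its normalized reads were 146, 162 and 135 in Npm1 siRNA libraries, against 108, 189 and 132 in control libraries. The control range enclosed the Npm1 siRNA range. Ddx4 had a log2 fold change of 0.05 (95% interval -0.46 to 0.56, Benjamini-Hochberg adjusted p = 0.965) in the authors' deposited table. Leaving out each library in turn gave values from -0.12 to 0.30, with a change of sign in 3 of the 6 fits.

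Mov10l1 encodes the RNA helicase that feeds piRNA precursors into processing and binds Piwi proteins. It lies on chromosome 15 from 88982909 to 89055152 (GRCm38, plus strand). Npm1 siRNA libraries had 106, 117 and 115 reads, or 99.8, 112 and 121 normalized reads, against 204, 202 and 211 reads, or 196, 199.6 and 229 normalized reads, in control libraries. All 3 Npm1 siRNA libraries lay below all 3 control libraries, with a gap of 75.8 normalized reads between the groups. The means were 111 ± 10.4 normalized reads for Npm1 siRNA and 208 ± 17.8 for control siRNA (SD, n = 3 each). In the authors' deposited table its log2 fold change was -0.91 (95% interval -1.35 to -0.47, Benjamini-Hochberg adjusted p = 0.00308). It stayed between -0.98 and -0.84 when each library was left out in turn, and Mov10l1 was called in all 6 of these fits. The call was lost when the test asked for more than a 1.2-fold change (adjusted p = 0.703). On that test 0.0770% of all tested genes were called lower, beside 2.07% in the main test.

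Mov10, the paralog of Mov10l1 that acts outside the germline, falls outside the rule for named genes and was named after its values were seen. It had a mean of 3468 normalized counts and a log2 fold change of 0.13 (95% interval -0.06 to 0.31, Benjamini-Hochberg adjusted p = 0.569) in the authors' deposited table. Its interval and that of Mov10l1 do not overlap, and whether the responses of these genes differ was not tested. Of 6 paralogs outside the pathway (Mov10, Ddx3x and Ago1 to Ago4), 0 were called, at 2 unadjusted p below 0.05, for Ago2 (log2 0.20) and Ago4 (log2 -1.32) in the authors' deposited table. Of all tested genes, 2.07% were called lower and 2.23% higher, and 16.3% had an unadjusted p below 0.05 in either direction. Nothing is read from 6 genes at such shares.

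Pld6 encodes a mitochondrial surface nuclease, the mouse counterpart of fly Zucchini, which cuts piRNA precursors. It was the member with the highest fold change. Its normalized reads were 61.2, 63.1 and 90.2 in Npm1 siRNA libraries, against 49.1, 44.5 and 37.9 in control libraries. The groups did not overlap, and the gap between them was 12.1 normalized reads. On the log2 scale the fold change was 0.70 (95% interval -0.03 to 1.43, Benjamini-Hochberg adjusted p = 0.332) in the authors' deposited table, so Pld6 was not called. Asz1, also called Gasz, is a scaffold at the same mitochondrial surface, and it was barely detected. Its reads numbered 2, 1 and 0 in Npm1 siRNA libraries, against 3, 2 and 5 in control libraries. With 3 reads against 10 in all, a difference was not detectable at these counts, and the 95% interval of the log2 fold change ran from -5.53 to 1.86 in the authors' deposited table.

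Tudor-domain proteins bind methylated arginines of Piwi proteins and assemble the granules in which piRNAs are made. Of the 4 members, Tdrd1 was barely detected, with 1, 2 and 0 reads in Npm1 siRNA libraries, against 1, 5 and 3 reads in control libraries. Tdrd5, needed for the assembly of these granules, had normalized reads of 51.8, 72.6 and 77.6 in Npm1 siRNA libraries, against 43.3, 59.3 and 66.1 in control libraries. The groups overlapped widely, and the log2 fold change was 0.26 (95% interval -0.45 to 0.97, Benjamini-Hochberg adjusted p = 0.817) in the authors' deposited table. Its exons overlap an antisense gene, 4930518J20Rik, over 176 bases in GENCODE, and that gene was listed at 0.

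Tdrd9, an RNA helicase with a Tudor domain that is needed to silence LINE-1 elements in male germ cells, had 15, 17 and 15 reads in Npm1 siRNA libraries, against 17, 45 and 31 reads in control libraries. In normalized reads the Npm1 siRNA libraries lay at 14.1, 16.2 and 15.7 and the control libraries at 16.4, 44.5 and 33.6. The groups did not overlap, by a margin of 0.119 normalized reads, because 1 control library lay almost at the Npm1 siRNA level. Tdrd9 had a log2 fold change of -1.03 (95% interval -2.21 to 0.14, Benjamini-Hochberg adjusted p = 0.401) in the authors' deposited table.

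Tdrkh, a mitochondrial Tudor protein needed for 3′ trimming of piRNAs, had 3, 3 and 15 reads in Npm1 siRNA libraries, against 16, 21 and 36 reads in control libraries. Its normalized reads were 2.82, 2.87 and 15.7 after Npm1 siRNA and 15.4, 20.7 and 39.0 after control siRNA. The groups overlapped through 1 Npm1 siRNA library, the one with a scaling factor of 0.954. The log2 fold change was -1.82 (95% interval -3.43 to -0.22, Benjamini-Hochberg adjusted p = 0.222) in the authors' deposited table. In the refitted negative binomial model without that library it was -3.14 (unadjusted p = 0.00232). The largest unadjusted p called in the authors' deposited table was 0.00214, so Tdrkh was not called there either. Leaving out any other library gave -2.08 to -1.36 in the same model (unadjusted p from 0.0215 to 0.139). Exons of Tdrkh overlap those of Oaz3 on the opposite strand over 2255 bases in GENCODE. Whether counting used strand is not given in the sources used here, and Oaz3 had a mean of 0.175 normalized counts in the authors' deposited table, the value of 1 read in 1 library.

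Mael encodes Maelstrom, a granule and nuclear protein needed for transposon silencing and piRNA production in mouse testis. It lies on chromosome 1 from 166201201 to 166238747 (GRCm38, minus strand). Npm1 siRNA libraries had 70, 50 and 77 reads, or 65.9, 47.8 and 80.7 normalized reads, against 110, 143 and 127 reads, or 106, 141 and 138 normalized reads, in control libraries. The groups did not overlap, with a gap of 25.1 normalized reads. The means were 64.8 ± 16.5 for Npm1 siRNA and 128 ± 19.5 for control siRNA (SD, n = 3 each). The log2 fold change was -0.99 (95% interval -1.58 to -0.39, Benjamini-Hochberg adjusted p = 0.0338) in the authors' deposited table.

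Whether Mael was called changed when libraries were left out and with settings. With each library left out in turn the log2 fold change of Mael ran from -1.17 to -0.81, and it stayed called in 2 of 6 such fits. With 1 library fewer, the standard error was 0.339 to 0.345 in these fits, against 0.305 with all 6 libraries. A call lost in them therefore does not single out the library left out. The call was lost without the Npm1 siRNA library of 50 reads, where the log2 fold change was -0.81. It was also lost without the Npm1 siRNA library of 70 reads (-1.0), the control library of 143 reads (-0.91) or that of 127 reads (-0.93). Among the settings, the call was lost with no filter on low means (adjusted p = 0.0592) and against a 1.2-fold change (adjusted p = 1). Removing a trend with transcript length and GC lost it as well (-0.93 on the log2 scale, adjusted p = 0.0583). Of all tested genes, 0.880% were called lower with no filter, 2.05% on removing that trend and 0.0770% against a 1.2-fold change.

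**Figure D3:**
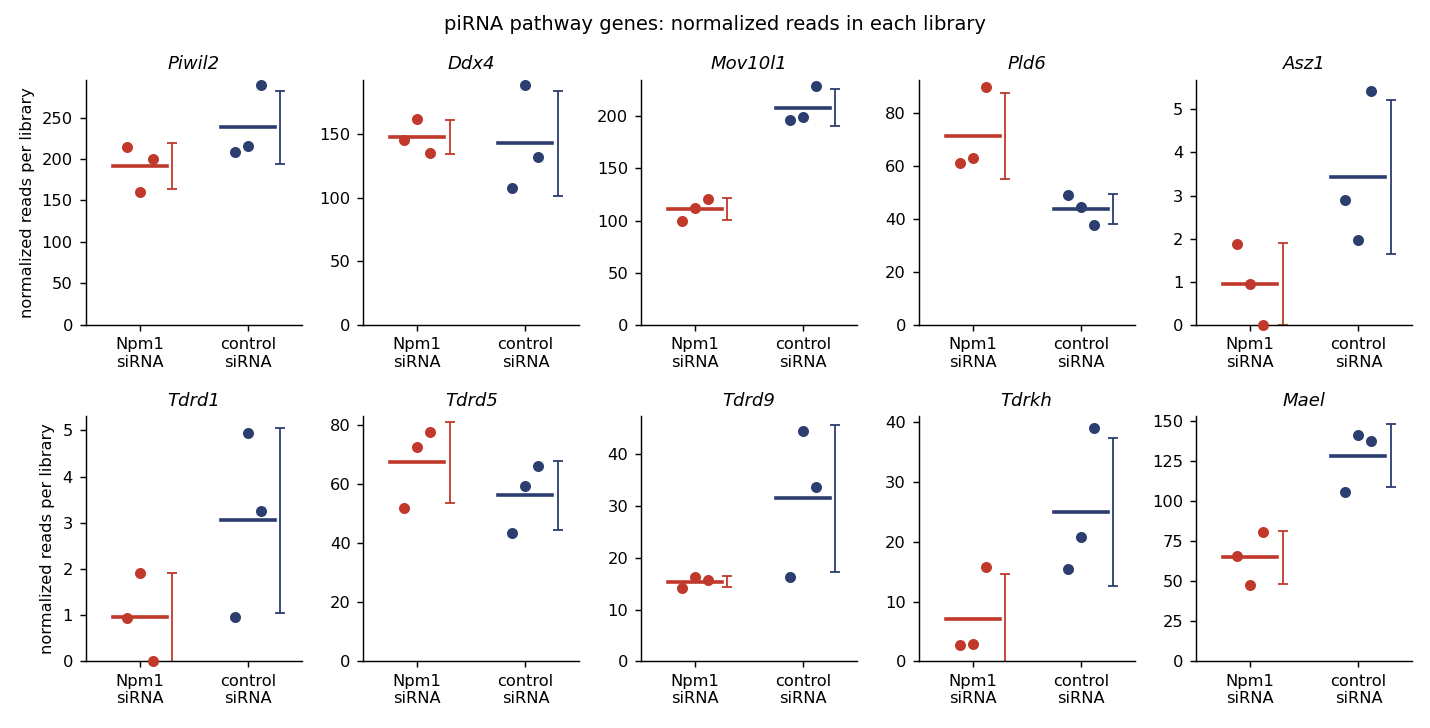
Normalized reads in each library for 10 piRNA pathway genes, Npm1 siRNA at the left and control siRNA at the right of each panel. Points are libraries, horizontal bars the mean and vertical bars the SD of 3 libraries (cut at 0). Mov10l1 and Mael show gaps of 75.8 and 25.1 between the groups, and Tdrd9 a margin of 0.119 set by 1 low control library.

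Side by side, 3 of the 8 tested members had Npm1 siRNA libraries that all lay below the control libraries (Mov10l1, Mael and Tdrd9), 1 had them all above (Pld6) and 4 overlapped. Over the 5882 genes with a mean of 10 to 250 whose reads were recovered, 11.1% were separated downward and 7.12% upward. Before adjustment, 3 members had a p below 0.05 in the authors' deposited table, all lower (Mov10l1, Mael and Tdrkh), where 7.79% of all tested genes were lower and 8.47% higher on that rule. The members' median log2 fold change was -0.61, beside 0.0019 over all tested genes and -0.06 over tested genes with a mean under 250. Of the 8 values 5 were negative, and 49.6% of all tested genes had a negative value in the authors' deposited table. Because the genes were chosen with this comparison known, nothing is read from these shares.

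**Figure D4:**
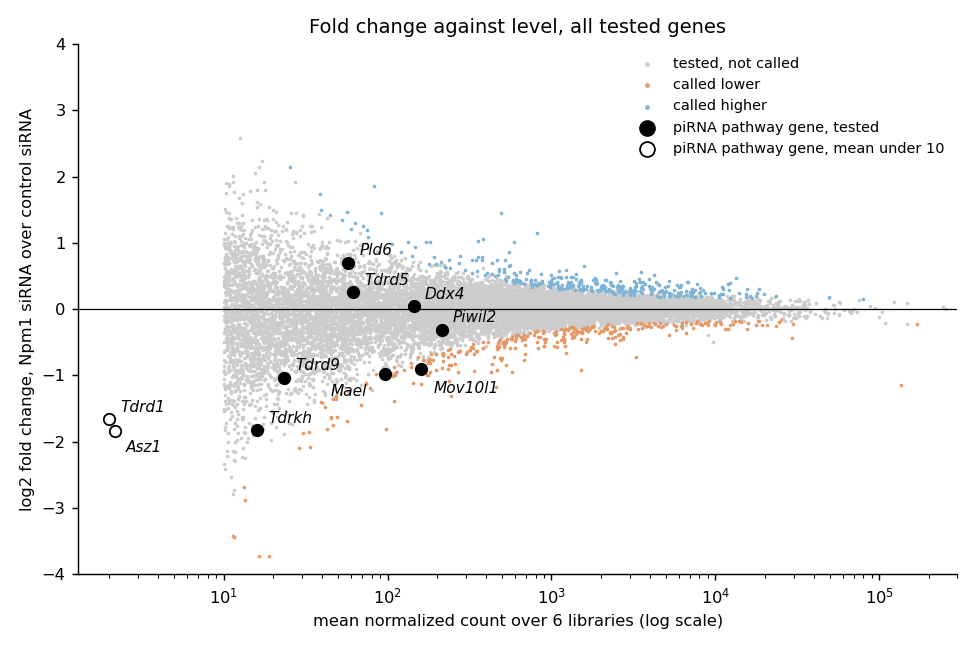
Log2 fold change, Npm1 siRNA over control siRNA, against the mean normalized count (log scale) in the authors' deposited table, with all tested genes as small points and piRNA pathway genes in black (open where the mean was under 10). Mov10l1 and Mael lie below 0 at -0.91 and -0.99, while Pld6 lies above 0 at 0.70. Of the 5882 genes with a mean of 10 to 250 and recovered reads, 6.83% had a value of -0.9 or below.

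The members differed in how closely libraries of 1 group matched. For Mov10l1 the coefficient of variation of normalized reads was 9.41% in Npm1 siRNA and 8.55% in control siRNA libraries, the one member under 10% in both groups. For Mael it was 25.5% in Npm1 siRNA and 15.2% in control siRNA libraries, and for Tdrkh it reached 104% in Npm1 siRNA and 49.4% in control siRNA libraries. Tdrd9 was at 7.19% in Npm1 siRNA and 45% in control siRNA libraries, and Ddx4 at 9.26% in Npm1 siRNA and 29.0% in control siRNA libraries. The standard error of the log2 fold change, derived from the fold change and p in the authors' deposited table, ran from 0.21 for Piwil2 and 0.22 for Mov10l1 to 0.82 for Tdrkh among tested members. The median was 0.43 over tested genes with a mean under 250.

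A further 24 piRNA pathway genes were listed from knowledge of the pathway, with an earlier account of these data known, and are described here. Of these, 3 were listed at 0 (Tdrd6, Spocd1 and Dnmt3c), 4 lay below a mean of 10 (Piwil4, Henmt1, Tdrd7 and Gtsf1), and 17 were tested. None passed in either direction, beside the 2.07% of all tested genes called lower and 2.23% called higher. At those shares, the lack of a call among 17 genes cannot show whether the falls of Mov10l1 and Mael extended to them. Before adjustment, 4 had a p below 0.05 in the authors' deposited table and were lower (Rnf17, Fkbp6, Gpat2 and Morc1) and 1 was higher (Dnmt3l), beside 7.79% of all tested genes lower and 8.47% higher. With the adjusted p threshold at 0.1, Fkbp6 was called lower and Dnmt3l higher, beside 3.13% of all tested genes lower and 3.36% higher. The median log2 fold change of the 17 was -0.06, with 10 values negative and 7 positive.

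Among granule proteins, Rnf17, a Tudor-domain protein also called Tdrd4, had a mean of 1325 normalized counts and a log2 fold change of -0.22 (95% interval -0.39 to -0.05, Benjamini-Hochberg adjusted p = 0.149) in the authors' deposited table. Tdrd12, which is needed for secondary piRNA production in mouse testis, was at -0.15 (-0.33 to 0.03) from a mean of 1134. Fkbp6, a co-chaperone of Piwi loading, came nearest to a call at -0.48 (95% interval -0.81 to -0.16, Benjamini-Hochberg adjusted p = 0.0634), in the authors' deposited table. Gpat2, a mitochondrial partner of Piwil2, was at -0.53 (95% interval -0.98 to -0.08), in the authors' deposited table. Its Npm1 siRNA libraries had 133, 236 and 206 reads, against 297, 292 and 223 in control libraries. After division by the scaling factors the 2 groups of Gpat2 did not overlap. Snd1, a Tudor protein of the cytoplasm in most cells, was at -0.00233 (-0.13 to 0.12), in the authors' deposited table. The other tested genes of this group were Stk31 at -0.16 (-0.70 to 0.37), Ddx25 at 0.16 (-0.63 to 0.95) and Tdrd3 at 0.31 (-0.05 to 0.66), none of them called, in the authors' deposited table.

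Among the remaining pathway genes, Exd1, a partner of Tdrd12, had 21, 27 and 12 reads in Npm1 siRNA libraries, against 41, 57 and 23 reads in control libraries. These groups overlapped, and the log2 fold change was -1.05 (95% interval -2.12 to 0.02, Benjamini-Hochberg adjusted p = 0.316) in the authors' deposited table. Pnldc1, the exonuclease that trims piRNA 3′ ends with the help of Tdrkh, was at -0.06 (95% interval -0.52 to 0.40) in the authors' deposited table, from a mean of 167 normalized counts. Piwil1, the Piwi protein of later spermatogenesis, had 17, 14 and 7 reads in Npm1 siRNA libraries, against 10, 11 and 14 reads in control libraries. In the nuclear branch Morc1, needed for transposon repression in male germ cells, was at -0.19 (95% interval -0.33 to -0.05, Benjamini-Hochberg adjusted p = 0.118), and Tex15, a partner of Piwil4 in directing DNA methylation, at -0.14 (-0.31 to 0.03), in the authors' deposited table. Dnmt3l, the cofactor of de novo DNA methyltransferases, was at 0.44 (95% interval 0.12 to 0.76, Benjamini-Hochberg adjusted p = 0.0992), in the authors' deposited table. Mybl1, the transcription factor of pachytene piRNA loci in mouse, was at 0.17 (95% interval -0.04 to 0.38), in the authors' deposited table. Its partners in transcription Btbd18 and Tcfl5 were at 0.09 and 0.44, with intervals that span 0, in the same authors' deposited table.

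**Figure D5:**
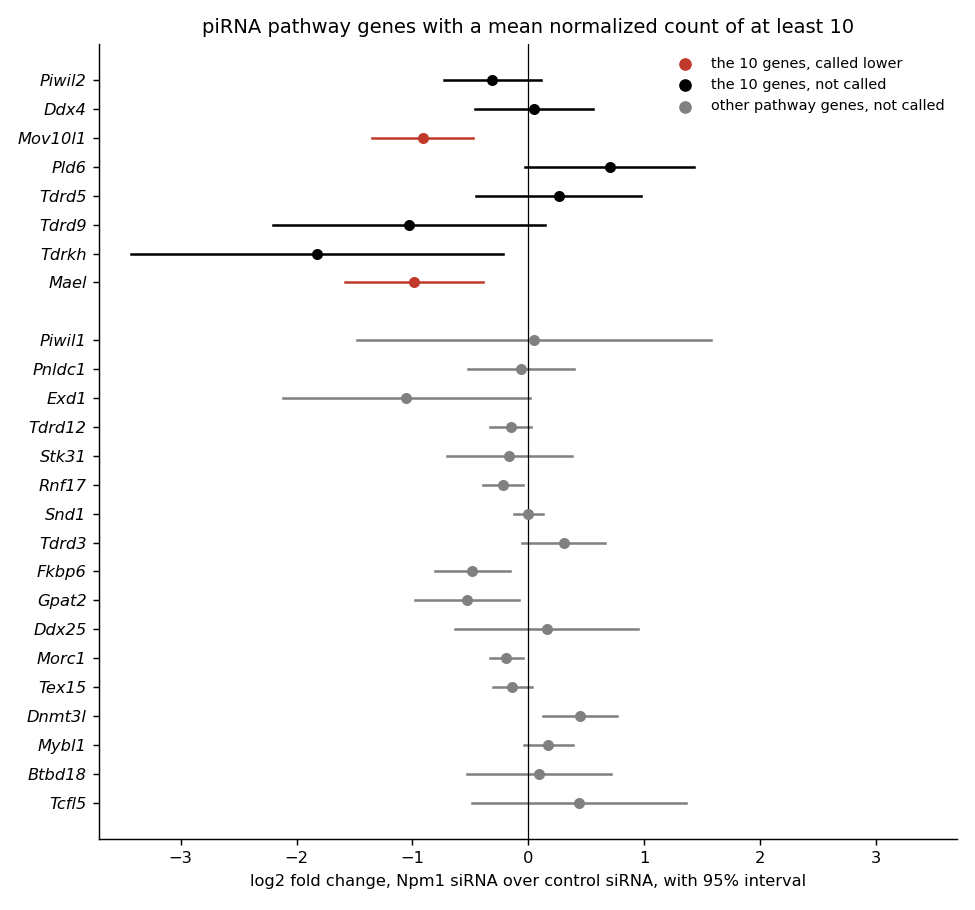
Log2 fold change, Npm1 siRNA over control siRNA, with 95% interval for 8 tested members (red where called lower, black otherwise) and 17 other tested piRNA pathway genes (grey). The intervals of Mov10l1 and Mael lie wholly below 0 at -0.91 and -0.99. None of the 17 other genes was called, beside 2.07% of all tested genes called lower and 2.23% called higher.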

How the data were processed

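The authors sequenced stranded, poly(A)-selected libraries from a single end, per the labels' protocols. The submitters' processing notes name FastQC, Trimmomatic 0.36, STAR and DESeq2 on GRCm38 (mm10). How reads were assigned to genes, with which annotation and model settings, was not given in the sources used here. The deposited table holds, per the file headers, a mean signal (read counts divided by a scaling factor per library and averaged over 6 libraries, called the mean normalized count), a log2 fold change and an unadjusted p-value per gene, all made by the authors with DESeq2.

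The authors' deposited p-values received a Benjamini-Hochberg adjustment across genes with a mean of at least 10 (statsmodels 0.14.6). Standard errors and 95% intervals were derived from each fold change and p. The deposited means summed to 27631017. The 1314 genes with a mean under 0.19 lay on 6 values, each the worth of 1 read in 1 library, 3 with positive and 3 with negative fold changes. Whole reads were then sought that gave a gene's mean to its last digits. For means of at least 30, group means were held within 2% of those the fold change implies, and reads between 0.25 and 2.5 times the group mean. With the dispersion set to match the deposited p, a negative binomial model of these reads had to return the deposited log2 fold change within 0.0001. Exactly 1 set was found for 5882 of 5893 genes with a mean of 10 to 250 (99.8%) and for all 10 members. Recovery was tested on simulated data, built with a single dispersion from genes over a narrower range of means. That range did not include the means of Piwil2, Mov10l1, Ddx4, Tdrd1 and Asz1. Leave-one-library-out fits kept that dispersion and used the largest unadjusted p called (0.00214) as threshold. Depth per library before scaling is unknown, and reads carry counting error.

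The 10 members, the 24 other pathway genes, the paralogs and markers, and the motifs were chosen with earlier results of these data known. By rule, the genes named were all members, other pathway genes when called or with a mean of at least 10, and Npm1. The pathway genes below that mean or at 0, the paralogs, the markers and the overlapping genes fall outside the rule and were named with their values seen. Lengths, positions and overlaps came from GENCODE M21 (GRCm38).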

Additional observations from a re-analysis of the deposited data

How the results depend on the processing

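Of the tested members, Piwil2, Pld6, Tdrd5, Tdrd9 and Tdrkh kept their direction and stayed uncalled in every alternative run, and Ddx4 stayed uncalled with a log2 fold change that crossed 0 on leaving out single libraries (-0.12 to 0.30; negative in 3 of these fits, at -0.12, -0.0233 and -0.0026). With a minimum mean of 50, Tdrd9 and Tdrkh were no longer tested. The number of members called lower was 2, and it fell to 1 with no filter, 1 after the length and GC trend was subtracted, and 0 against a 1.2-fold change. Leaving out each library gave 1 to 2 called lower and 0 called higher. The other pathway genes, with 0 called, gave 1 lower (Fkbp6) and 1 higher (Dnmt3l) at an adjusted p under 0.1. Over all tested genes, 296 lower and 318 higher became 11 and 6 against a 1.2-fold change, 447 and 480 at an adjusted p under 0.1, and 206 higher after the length and GC trend. The cause of the changes was not tested. No paired analysis was possible because the recovered libraries carry no replicate numbers. Asz1 and Tdrd1, with totals of 3 against 10 and 3 against 9 reads, lay below the mean of 10 required for testing. Low level and limited depth cannot be told apart for these genes.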
